A study of Mus musculus with 14 samples.

Results

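Promoter contacts of frontonasal process (FNP) cranial neural crest cells (CNCCs) were compared with those of mandibular (Md) CNCCs at E10.5. All libraries labelled FNP, E10.5 and WT (2 libraries) were set against all labelled Md, E10.5 and WT (2 libraries), 4 of the 14 promoter capture Hi-C (PCHi-C) libraries of the series. The 2 replicates each of maxillary (Mx) and second pharyngeal arch (PA2) CNCCs of the same stage and genotype served as reference and helped to estimate the spread. The cells of these 8 libraries came from Wnt1::Cre;ROSARFP embryos on a mixed C57Bl/6J and CD1 background. In these embryos the *Wnt1* promoter drives Cre in neural crest progenitors, so that their descendants stay red fluorescent. The prominence was dissected, and the fluorescent cells were cross-linked and sorted. Embryos of both sexes were pooled, so a library is a pool of embryos and not 1 animal. The sort takes all neural crest derivatives of a prominence. Contacts do not measure expression, so the cell type of the libraries could not be checked against marker genes here.

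PCHi-C cuts cross-linked chromatin with the restriction enzyme HindIII, ligates fragment ends held near one another, and enriches by capture for products with a promoter fragment, called the bait. The CHiCAGO score of a bait and another fragment says how far their read count exceeds what is usual at that distance in that library. Each list holds the pairs with a score of 5 or more. A pair that is listed is called a contact here, and an unlisted pair has a score below 5, which is not the same as no contact. Since cells were pooled, a contact made in more cells and one made more often per cell cannot be told apart. A pair listed in both FNP libraries and in neither Md library is called FNP-only, and the reverse Md-only. Genes for transcription factors that give facial prominences their identity tend to lie in gene-poor regions, with enhancers spread over long distances on both sides. In the upper face these factors include the ALX homeodomain proteins, PAX3, PAX7 and SIX2. In the lower jaw, endothelin signalling through EDNRA activates *Dlx5* and *Dlx6*, and these activate *Hand2*, while *Pitx1*, *Barx1* and *Gsc* are further mandibular arch genes.

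Contacts within a chromosome numbered 139707 and 161941 in the FNP libraries, and 173477 and 176770 in the Md libraries. Md replicate 1 stood apart, since 46.5% of its listed pairs joined different chromosomes, against 3.04% to 3.86% in the other 7 E10.5 libraries. Its deposited name says that it was merged. Pairs between chromosomes were not used. Within 2 Mb the libraries were closer, with 125702 and 135393 contacts in FNP and 125410 and 142012 in Md. Read counts were not at hand, so the depth is unknown. The lists of replicates overlapped no more than those of different populations. The shared contacts made up 38.8% to 49.3% of the list of a replicate, and 34.9% to 50.6% for 2 libraries of different E10.5 populations.

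The 2 FNP libraries and the 2 Md libraries together listed 401874 contacts, of which 42006 were listed in all 4. Of the 401874, 9300 were FNP-only (2.31%) and 10102 were Md-only (2.51%). Without Md replicate 1, 14643 of 316167 contacts (4.63%) were listed in both FNP libraries and not in Md replicate 2, and 83329 (26.4%) in Md replicate 2 and neither FNP library. The latter rest on 1 library. With every list cut to the same number of highest scores the order of the sides turned, with 10562 FNP-only and 6832 Md-only contacts. The one-sided contacts were weak. The lower of the 2 scores had a median of 5.56 in FNP-only and 5.62 in Md-only contacts, and was 10 or more in 65 FNP-only (0.699%) and 201 Md-only contacts (1.99%). Of the contacts listed in all 4 libraries, 15.6% had a score of 10 or more in each. Most one-sided contacts were also listed in a library of another population. Of the FNP-only contacts, 2663 (28.6%) were unlisted in all 4 Mx and PA2 libraries, as were 2819 of the Md-only contacts (27.9%). Both Mx libraries listed 17.5% of the FNP-only and 19.3% of the Md-only contacts, and both PA2 libraries 15.0% and 17.8%.

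No single contact passed the test. Of 104587 contacts that at least 4 of the 8 E10.5 libraries listed, limma on asinh of the score called 0 (0%) at an adjusted p below 0.05, and the smallest adjusted p was 0.212. A one-sided contact entered this test only if at least 2 Mx or PA2 libraries also listed it. The 2663 FNP-only and 2819 Md-only contacts unlisted in Mx and PA2 could therefore not be called here. Nor could those listed in only 1 of these libraries, which are among the 6171 FNP-only and 6605 Md-only contacts listed in some but not all of them. At an unadjusted p below 0.05, 2912 contacts (2.78%) were higher in FNP and 3399 (3.25%) in Md. This balance turned with equal numbers of top-scoring pairs, which gave 3663 and 2734. Leaving out Md replicate 1 gave 3175 and 1946, and leaving out Md replicate 2 gave 6798 and 1436. Leaving out FNP replicate 1 gave 1381 and 4243, and leaving out FNP replicate 2 gave 1319 and 5710. With contacts that only 2 of the 8 libraries had to list, 6743 were called, and with the 4 FNP and Md libraries alone 15955. Both settings take in contacts listed in the 2 libraries of 1 population and no other, which have almost no measured spread. With at least 3 of the 8 libraries 0 were called, and likewise with a listing in any of them. The part of the small spread in the higher numbers was not tested. The number of contacts per promoter gave the same outcome. Of 10169 baits with at least 5 contacts on average, limma called 0 (0%). The smallest adjusted p was 0.297, and 536 baits (5.27%) were higher in FNP and 363 (3.57%) in Md at an unadjusted p below 0.05. Without scaling by the library total the balance turned, to 187 and 784. All values below are therefore descriptions of 2 against 2 libraries.

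Sequences of the contacted fragments are given for the 6 promoters on which the results turn, to show where the one-sided contacts land. For each promoter the one-sided fragment within 2 Mb with the highest lower score was taken, and the 200 bases of its end that faces the bait are shown on the plus strand of GRCm38. TAATTA, the core that ALX, DLX and many other homeodomain factors bind, is in capitals. It was searched on both strands, as was CATCTG, an E-box of the kind bound by HAND2. TAATTA was found in the *Alx1* and *Pax3* ends and CATCTG in 0 of the 6. Of the 182285 bait-facing ends of this length among all contacted fragments of the 4 libraries, 7.70% held TAATTA and 14.4% CATCTG. The shared mark of all fragments is the enzyme: each of the 192015 distinct fragments on the 4 lists had a HindIII site of GRCm38 at both ends.
*Alx1* contact, FNP-only, chr10:103113207-103113406, intron of *Lrriq1*: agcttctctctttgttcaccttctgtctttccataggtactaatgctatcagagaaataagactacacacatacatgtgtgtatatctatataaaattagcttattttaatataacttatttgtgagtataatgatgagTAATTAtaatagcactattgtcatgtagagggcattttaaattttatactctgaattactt
*Alx4* contact, FNP-only, chr2:93598819-93599018, intergenic: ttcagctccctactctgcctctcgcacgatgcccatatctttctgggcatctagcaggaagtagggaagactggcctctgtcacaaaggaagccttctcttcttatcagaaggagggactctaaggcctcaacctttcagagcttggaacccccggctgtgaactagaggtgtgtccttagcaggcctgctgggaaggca
*Foxc1* contact, FNP-only, chr13:32286042-32286241, intron of *Gmds*: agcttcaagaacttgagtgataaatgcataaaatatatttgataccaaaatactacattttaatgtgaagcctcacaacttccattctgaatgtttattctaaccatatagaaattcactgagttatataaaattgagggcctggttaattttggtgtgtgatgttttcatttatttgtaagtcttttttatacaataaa
*Pax3* contact, Md-only, chr1:78139982-78140181, intron of *Pax3*: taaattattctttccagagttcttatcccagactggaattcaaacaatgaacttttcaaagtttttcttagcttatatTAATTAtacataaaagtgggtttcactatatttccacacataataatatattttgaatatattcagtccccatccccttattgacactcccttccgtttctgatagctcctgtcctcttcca
*Hand2* contact, Md-only, chr8:56708162-56708361, intergenic: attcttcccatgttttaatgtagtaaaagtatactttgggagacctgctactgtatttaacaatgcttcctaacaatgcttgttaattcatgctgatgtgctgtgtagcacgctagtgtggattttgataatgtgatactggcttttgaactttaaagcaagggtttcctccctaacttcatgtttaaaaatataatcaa
*Pitx1* contact, Md-only, chr13:55950903-55951102, intron of *Gm47071*: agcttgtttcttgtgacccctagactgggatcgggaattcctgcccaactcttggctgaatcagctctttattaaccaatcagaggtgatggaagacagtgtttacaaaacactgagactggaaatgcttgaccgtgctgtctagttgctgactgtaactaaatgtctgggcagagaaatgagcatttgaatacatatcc

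The frontonasal list held 7 genes, all with a bait, and 386 contacts in the 4 libraries. Of these contacts 46 were FNP-only (11.9%) and 16 Md-only (4.15%), against 2.32% and 2.53% of the contacts of all 22171 baits. The number of contacts within 2 Mb was higher in both FNP than in both Md libraries for 4 of the 6 baits tested, among them *Alx1*, *Alx4* and *Six2*, and the reverse for 0. Over all 10169 baits tested, this was so for 13.1% and 15.7%. At all distances 3 of the 6 were higher in both FNP libraries (*Alx1*, *Alx4* and *Six2*) and 1 in both Md libraries (*Pax3*), beside 8.99% and 23.6% of all baits. None of the 6 was called by limma, and their median difference was 0.74 on the log2 scale of contacts per library total, beside 0.07 over all baits, and 0.73 within 2 Mb, beside 0.02.

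*Alx1*, whose loss leaves the midface cleft, had 20 and 27 contacts in FNP and 8 and 12 in Md (bait on chromosome 10, 103026355 to 103030016). The Mx libraries had 8 and 11 and the PA2 libraries 2 and 3. Both FNP libraries were above the other 6. The difference between FNP and Md was 1.38 ± 0.36 (SE) on the log2 scale (limma, unadjusted p = 0.00167, adjusted p = 0.341). Of its contacts 10 were FNP-only and 0 Md-only, and without Md replicate 1 the numbers were 12 and 8. The 8, like each Md-side count without Md replicate 1 given below, rests on Md replicate 2 alone. Over all contacts the shares in this setting were 4.63% on the FNP side and 26.4% on the Md side.

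The FNP-only contacts of *Alx1* lay on either side of the promoter. Upstream of the gene, 80 to 130 kb from the bait and within *Lrriq1*, the FNP libraries listed 7 and 11 fragments, Mx 2 and 3, Md 1 and 0, and PA2 0 and 0. The fragment printed above, 86.4 kb away, had a score of 19.8 and 25.1 in FNP and of 8.32 and 6.48 in Mx. It was unlisted in Md and PA2, and was the FNP-only contact with the second highest lower score in the genome. On the other side, downstream, from 102865733 to 102878284, FNP listed 5 fragments in each replicate, Mx 1 and 2, Md 1 and 1, and PA2 0 and 0. A fragment in *Rassf9*, 518 kb away, did not follow this pattern. It scored 17.6 and 15.6 in FNP and 20.8 and 19.8 in Md, and was listed in all 8 libraries.

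*Alx4*, a related homeodomain gene, had 51 and 40 contacts in FNP, 37 and 29 in Mx, 22 and 25 in Md, and 6 and 16 in PA2 (bait on chromosome 2, 93637427 to 93643377). FNP was highest, without overlap, and PA2 lowest. The FNP minus Md difference was 1.14 ± 0.35 (SE, log2; limma, unadjusted p = 0.00593, adjusted p = 0.39). Of its contacts 11 were FNP-only and 0 Md-only, and without Md replicate 1 these were 15 and 1. Just upstream of the bait, from 93612040 to 93630392, 9 and 8 fragments were listed in FNP, 5 and 2 in Mx, 2 and 1 in Md, and 1 in each PA2 library. Of the FNP-only contacts 4 were adjacent fragments in that stretch, from 93620792 to 93629525, with scores between 7.03 and 8.88. The fragment printed above, 44.3 kb away, scored 7.56 and 7.65 in FNP and 5.14 and 6.54 in Mx, and was unlisted in PA2. *Gm10803*, a predicted gene whose bait lies upstream of *Alx4* (93560082 to 93560816), had 21 and 24 contacts in FNP, 10 and 8 in Mx, 5 in each Md library, and 4 and 1 in PA2. It had 11 FNP-only contacts and 1 Md-only contact.

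*Pax7*, a paired-box gene of the nasal neural crest, had 3 and 12 contacts in FNP and 1 and 2 in Md, too few to be tested. *Six2* had 35 contacts in each FNP library and 29 and 22 in Md, with 6 FNP-only contacts and 1 Md-only contact (difference 0.67 ± 0.26, SE, log2; limma, adjusted p = 0.472). PA2, with 32 and 36, overlapped with FNP. *Tfap2b*, which encodes an AP-2 factor, had 34 and 54 contacts in FNP and 37 and 44 in Md, so that the groups overlapped. Its 9 FNP-only contacts lay 738 to 1066 kb away and its 2 Md-only contacts 1256 and 1332 kb. Without Md replicate 1 the numbers were 12 and 14.

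*Pax3*, a paired-box gene of early neural crest and frontonasal mesenchyme, had the most Md-only contacts of the list (bait on chromosome 1, 78196361 to 78197158). It had 54 and 53 contacts in FNP and 77 and 64 in Md, with 85 and 79 in Mx and 68 and 66 in PA2. On the scale of the library total the difference was -0.17 ± 0.20 (SE, log2; limma, adjusted p = 0.845). It lay between -0.31 (Md replicate 2 left out) and -0.02 (Md replicate 1 left out) with 1 library fewer, and was -0.39 unscaled. Of its contacts 6 were FNP-only and 13 Md-only, and without Md replicate 1 the numbers were 14 and 29. The Md-only contacts included 5 adjacent fragments inside *Pax3*, from 78135607 to 78146549.

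In the intragenic stretch from 78132247 to 78146549 FNP lay below the other populations without overlap. FNP listed 0 of its fragments in both replicates, while Md and Mx listed 6 in each replicate and PA2 8 in each. The fragment printed above scored 13.6 and 10.6 in Md, 13.9 and 11.1 in Mx, and 21.3 and 16.6 in PA2. The stretch was chosen after its values were seen, so these counts are descriptions. Md replicate 2 listed as many of its fragments as Md replicate 1. Upstream, from 78427115 to 78474081 around *Farsb*, the order was reversed. FNP listed 16 and 14 fragments there, Mx 11 and 10, Md 7 and 7, and PA2 7 and 5. The strongest shared contact, 216 kb away, scored 17.1 and 18.7 in FNP and 18.9 and 18.5 in Md.

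**Figure D1:**
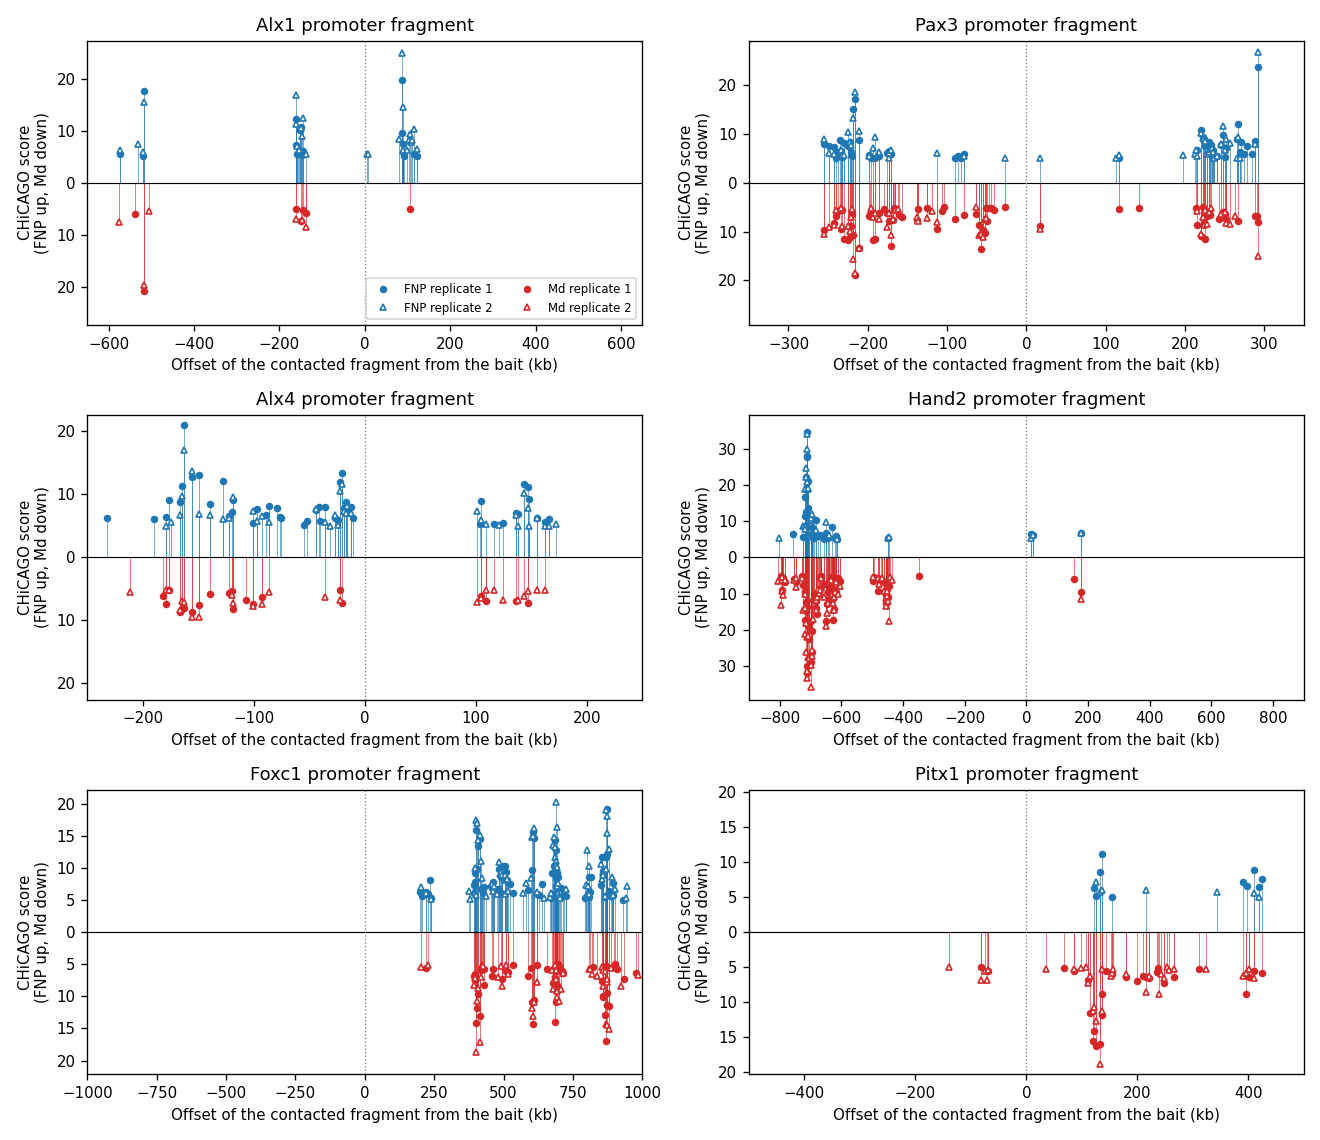
CHiCAGO score (vertical axis, no unit; FNP drawn upwards in blue, Md downwards in red) of each contact within the plotted range against its offset from the bait midpoint in kb, for 6 promoters; circles are replicate 1 and triangles replicate 2. *Alx1* has FNP contacts 80 to 130 kb to the right where Md has at most 1, *Pax3* has Md contacts between -65 and -50 kb where FNP has 0, and *Hand2* and *Pitx1* have more Md than FNP contacts around peaks that all 4 libraries share.

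The list of distal and mandibular arch genes held 15 genes, of which 14 had a bait (*Dlx6* had none), with 719 contacts in the 4 libraries. Of these 74 were Md-only (10.3%) and 18 FNP-only (2.50%). Within 2 Mb, 7 of the 14 baits had more contacts in both Md than in both FNP libraries (*Hand2*, *Pitx1*, *Dlx5*, *Lhx6*, *Lhx8*, *Barx1* and *Gsc*), against 15.7% of all baits, and 0 the reverse. At all distances 6 of the 14 were higher in both Md libraries, *Lhx6* not among them, beside 23.6% of all baits. None was called by limma, and the median difference of the 14 was -0.01 on the log2 scale and -0.28 within 2 Mb. *Hand2* and *Pitx1* held 44 of the 74 Md-only contacts.

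*Hand2*, a basic helix-loop-helix gene needed for the lower jaw, had 69 and 73 contacts in Md and 37 and 31 in FNP (bait on chromosome 8, 57318613 to 57347153). PA2 had 59 and 66, and Mx 42 in each library. FNP was thus lowest and Md highest, and no 2 of the 4 populations overlapped. The FNP minus Md difference was -0.83 ± 0.22 (SE, log2; limma, unadjusted p = 0.00166, adjusted p = 0.341). Its 31 Md-only contacts were the second largest number of any promoter, beside 2 FNP-only contacts. Without Md replicate 1 the numbers were 42 and 2, where the 42 rest on Md replicate 2 alone, beside 26.4% and 4.63% of all contacts.

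All Md-only contacts of *Hand2* lay upstream, between 450 and 797 kb from the bait, in a region with *Cep44* and *Fbxo8* at its far end. In the whole stretch, from 56534748 to 56884514, Md listed 62 and 65 fragments, PA2 50 and 54, Mx 35 and 30, and FNP 29 and 19. Elsewhere the *Hand2* bait had 7 and 8 contacts in Md and 8 and 12 in FNP. The populations did not differ at the strongest fragment of the stretch, 712 kb away, which scored 34.5 and 29.8 in FNP and 31.9 and 33.3 in Md. The Md-only contacts lay around it, and included 2 series of 5 adjacent fragments, from 56702094 to 56711284 and from 56870048 to 56884514. The fragment printed above, 625 kb away, scored 17.3 and 14.6 in Md and 8.91 and 12.9 in PA2. In Mx it was listed in replicate 1 only, with 5.38. Both FNP-only contacts were close, 16.3 and 20.8 kb downstream in *5033428I22Rik*.

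*Pitx1*, a homeodomain gene of the mandibular arch and hindlimb, had 28 and 35 contacts in Md and 11 and 7 in FNP (bait on chromosome 13, 55825328 to 55839562). Mx had 16 and 10 and PA2 13 and 10, so both Md libraries were above the other 6. The difference of -1.50 ± 0.35 (SE, log2; limma, unadjusted p = 0.000714, adjusted p = 0.313) was the largest on this list. Of its contacts 13 were Md-only and 1 was FNP-only, and without Md replicate 1 there were 27 and 1. Upstream of the gene, 60 to 270 kb from the bait and mostly in the noncoding gene *Gm47071*, Md listed 21 and 23 fragments, FNP 5 and 4, Mx 7 and 6, and PA2 8 and 6. The fragment printed above, 120 kb away, scored 15.57 and 11.25 in Md, 5.33 and 0 in Mx, and 0 and 5.49 in PA2. A fragment 136 kb away was listed in all 4 FNP and Md libraries, with 11.1 and 5.95 in FNP and 11.85 and 11.26 in Md. The FNP-only contact joined *Pitx1* to the promoter fragment of *Neurog1*, a neuronal determination gene 419 kb away.

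The other members of the list differed less. *Dlx5*, a homeodomain gene of the ventral arch, had 44 and 41 contacts in FNP and 56 and 53 in Md, and 68 and 75 in Mx. It had 6 Md-only and 0 FNP-only contacts, all of them 515 to 1069 kb away towards *Dync1i1* and *Slc25a13*. From 5794066 to 6373492 on that side, FNP listed 42 and 38 fragments, Mx 62 and 71, Md 50 and 50, and PA2 52 and 58, so FNP was below the other 3 populations. *Gsc*, the goosecoid homeobox gene, had 37 and 45 contacts in FNP and 47 and 53 in Md, with 6 Md-only and 2 FNP-only contacts. *Barx1*, which marks molar and jaw mesenchyme, had 9 and 10 against 13 and 20, with 3 Md-only and 0 FNP-only contacts. The LIM homeobox genes *Lhx6* and *Lhx8* had 3 Md-only and 2 FNP-only contacts each, and within 2 Mb *Lhx8* had 18 and 16 contacts in FNP and 23 and 24 in Md. For *Hand1*, *Dlx3*, *Dlx4*, *Nkx3-2*, *Foxf1*, *Foxf2* and *Ednra* the 2 groups overlapped. *Dlx1* and *Dlx2*, expressed throughout the arch, also overlapped, with 3 and 7 Md-only contacts and 1 and 3 FNP-only contacts.

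**Figure D2:**
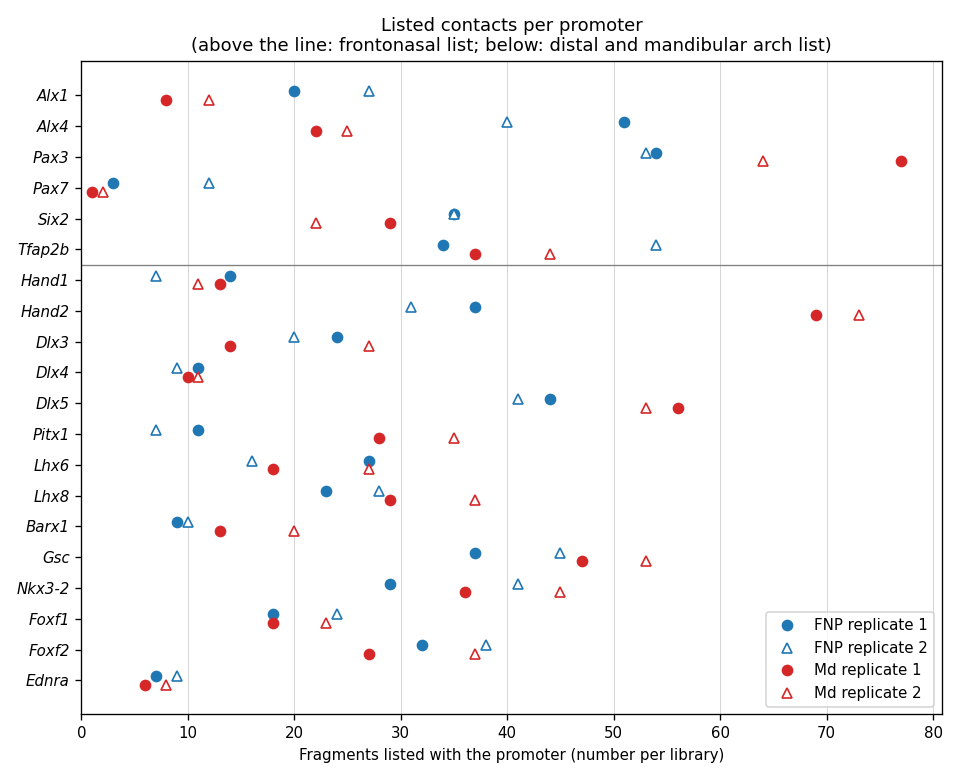
Number of contacts per promoter (horizontal axis, contacts per library) for genes of the frontonasal list (above the line) and of the distal and mandibular arch list (below it), with FNP in blue, Md in red, circles for replicate 1 and triangles for replicate 2. *Alx1*, *Alx4*, *Six2* and the seldom listed *Pax7* have both FNP libraries to the right of both Md libraries, and *Hand2*, *Pitx1*, *Pax3*, *Dlx5*, *Lhx8*, *Barx1* and *Gsc* the reverse.

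**Figure D3:**
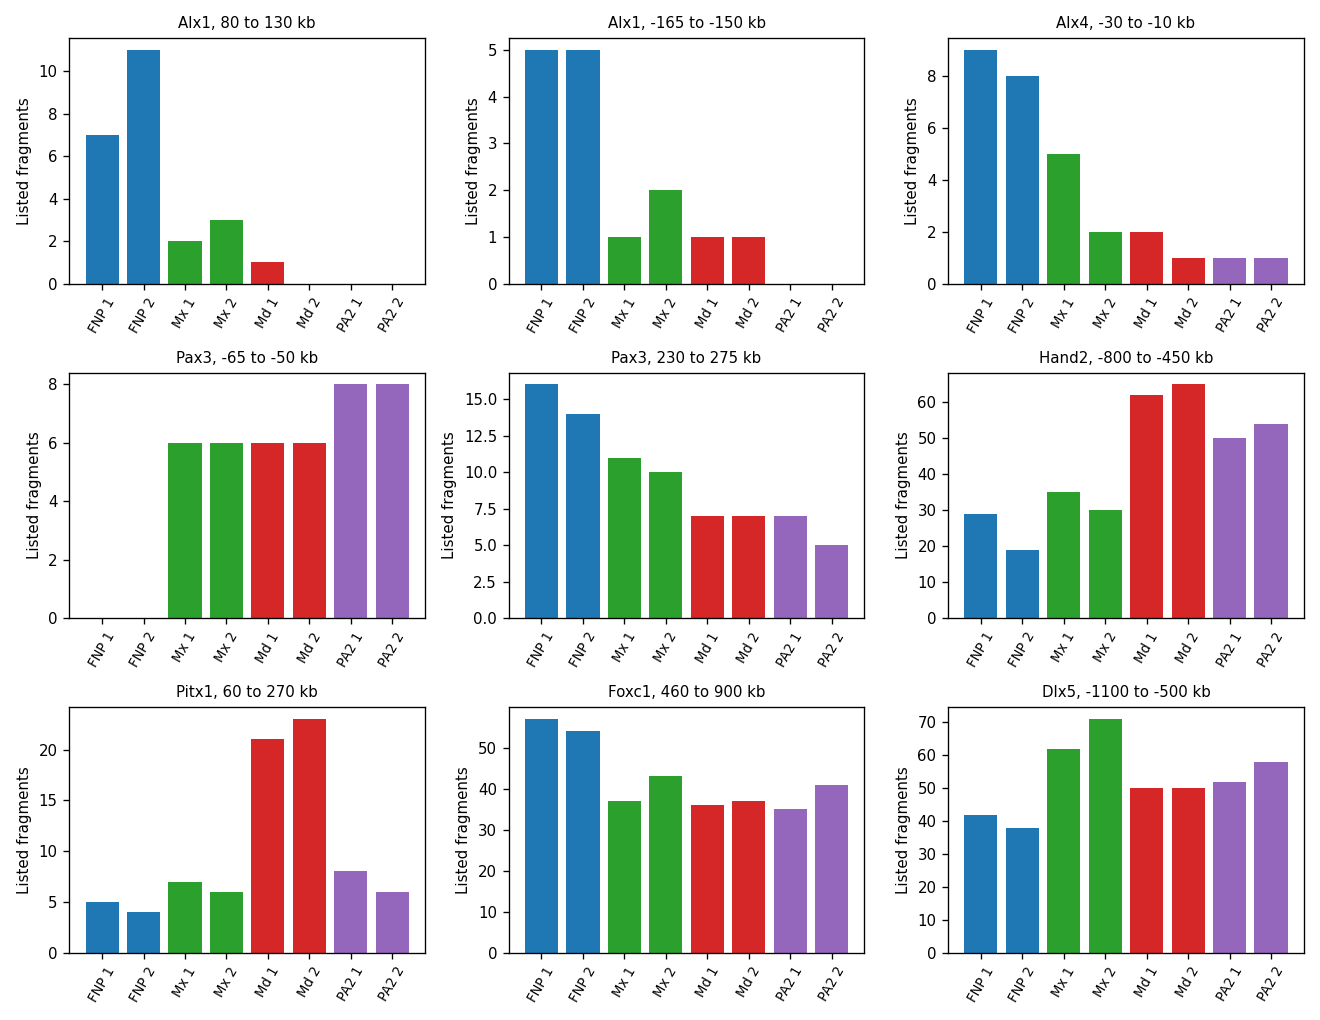
Number of fragments listed in 9 stretches chosen after their values were seen (vertical axis, listed fragments; panel titles give the gene and the offset from the bait in kb, negative towards lower coordinates), with 1 bar for each of the 8 E10.5 libraries. FNP is highest for *Alx1*, *Alx4*, *Foxc1* and the right-hand *Pax3* stretch, Md for *Hand2* and *Pitx1*, and FNP is at 0 in the left-hand *Pax3* stretch.

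Among the 18 genes of shared facial mesenchyme, with 934 contacts, 45 were FNP-only (4.82%) and 36 Md-only (3.85%). *Foxc1*, a forkhead gene of periocular and cranial mesenchyme, held 13 of the FNP-only contacts and 1 Md-only contact (bait on chromosome 13, 31800182 to 31809419). It had 77 and 74 contacts in FNP, 50 and 56 in Mx, 54 and 50 in Md, and 56 in each PA2 library. Both FNP libraries were thus above the other 6. The difference was 0.75 ± 0.20 (SE, log2; limma, unadjusted p = 0.00182, adjusted p = 0.341), and without Md replicate 1 there were 17 FNP-only and 5 Md-only contacts. The 13 FNP-only contacts lay 464 to 894 kb downstream, in *Gmds* and beyond it. In that stretch, 460 to 900 kb away, FNP listed 57 and 54 fragments, Mx 37 and 43, Md 36 and 37, and PA2 35 and 41. The fragment printed above, 483 kb away, scored 9.76 and 10.84 in FNP, but was also listed in PA2, at 7.67 and 6.56, and in Mx replicate 2, at 6.9. *Runx2*, the osteoblast regulator, had 25 and 21 contacts in FNP and 13 and 17 in Md from its first bait (44734916 to 44741987 on chromosome 17), with 3 FNP-only and 0 Md-only contacts. From its second bait (44814650 to 44815363) it had 10 and 5 in FNP and 6 and 3 in Md, so the groups overlapped. *Twist1*, *Msx1*, *Msx2*, *Prrx1*, *Sox9* and *Tfap2a* overlapped between the groups.

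The *Hox* list held 25 genes, 23 of them with a bait. *Hox* genes are silent in FNP and Md CNCCs. Of the 1373 contacts of the 26 baits, 51 were FNP-only (3.71%) and 35 Md-only (2.55%). Relative to the library total 25 of the 26 were higher in FNP, but with fragments within 2 Mb only 18 were, beside 51.2% of all baits, and unscaled likewise 18. Many of these baits are neighbours within a *Hox* cluster. The median difference was 0.32 with the scaling by library total and 0.13 within 2 Mb (log2), beside 0.07 and 0.02 over all baits. *Hoxa2*, the selector of the second arch, had 30 contacts in each FNP library and 33 and 30 in Md, with 2 one-sided contacts on each side. The scaling itself moved the median over all baits from -0.15 to 0.07, and 35.5% of all baits were higher in FNP unscaled and 56.4% scaled.

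Of the 27 signalling genes, with 1025 contacts, 37 contacts were FNP-only (3.61%) and 30 Md-only (2.93%). *Cyp26b1*, which degrades retinoic acid, had 48 and 40 contacts in FNP and 30 in each Md library. *Spry1*, a feedback inhibitor of receptor tyrosine kinase signalling, had 28 and 32 against 17 and 24. *Aldh1a2*, which makes retinoic acid, had 13 and 14 against 21 and 19, with 4 Md-only and 0 FNP-only contacts. *Ptch1* and *Gli3*, of the hedgehog pathway, overlapped between the groups with 3 Md-only contacts each. The genes of other cell types, with 416 contacts, had 2.40% FNP-only and 2.64% Md-only contacts. The housekeeping genes, with 344 contacts, had 4.07% FNP-only and 0.872% Md-only contacts, or 14 and 3.

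The promoters with the most one-sided contacts were chosen by that count, and their counts are descriptions. On the FNP side these were *Safb* with *Safb2* on 1 bait (18 FNP-only contacts), *Nepro* (16), *Eps8l3* (15), *Foxc1* (13), *Gata2*, *Gramd1a* and *Hjurp* with *Trpm8* (12 each), and *Alx4*, *Boc*, *Gm10803*, *Gm13133*, *Gm16230* and *Kctd15* (11 each). *Boc*, which encodes a hedgehog co-receptor, and *Nepro* are neighbours on chromosome 16. *Boc* had 30 and 32 contacts in FNP, 15 in each Md library, 20 in each Mx library, and 24 and 26 in PA2. *Nepro* had 60 and 63 in FNP, 29 and 42 in Md, 53 in each Mx library, and 53 and 50 in PA2. FNP was highest at both, without overlap. The *Boc* contacts were FNP-only at 21.9 to 131 kb and the *Nepro* contacts at 177 to 582 kb.

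*Gata2*, a zinc-finger gene of haematopoiesis and neural tissue, had 49 and 64 contacts in FNP, 40 and 39 in Mx, 38 and 40 in Md, and 38 and 39 in PA2, with 12 FNP-only and 0 Md-only contacts at 140 to 263 kb. *Kctd15*, which inhibits neural crest formation in frog and fish embryos, had 58 and 48 contacts in FNP and 32 and 41 in Md, but the Mx libraries had 58 and 46. The bait of *Safb* and *Safb2*, nuclear matrix proteins, had 69 and 89 in FNP and 42 and 49 in Md, while PA2 had 88 and 22. In that case the PA2 replicates differed from each other by more than FNP did from Md.

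On the Md side the leading promoters were *Zik1* (55 Md-only contacts), *Hand2* (31), *Hjurp* with *Trpm8* (24), *Ubap2* (21), the bait of *Chmp2a*, *Trim28* and *Ube2m* (20), *Zfp324* (19), the bait of *Fiz1*, *Gm44973* and *Zfp524* (18), and *Chordc1*, *Vasp* and *Ywhaq* (16 each). *Hand2* differed from most of these in distance, since all of its one-sided contacts lay within 2 Mb, as did the Md-only contacts of *Ubap2* and *Ywhaq*. For *Zik1*, a zinc-finger gene on chromosome 7, 7 of 55 did, and for *Hjurp* with *Trpm8* 0 of 24. *Zik1* had 148 and 248 contacts in FNP, 205 and 301 in Mx, 269 and 510 in Md, and 179 and 249 in PA2, and the Mx libraries overlapped with Md. *Trim28*, the corepressor of KRAB zinc-finger proteins, and the zinc-finger genes *Zik1*, *Zfp324* and *Zfp524* lie on chromosome 7, which held 13.1% of the Md-only contacts, 8.62% of the FNP-only contacts and 12.8% of all contacts in the 4 libraries. *Ubap2* had 18 and 65 contacts in FNP, 78 and 123 in Md, and 80 and 91 in Mx. Here FNP replicate 1 was the low library, and the cause was not tested.

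**Figure D4:**
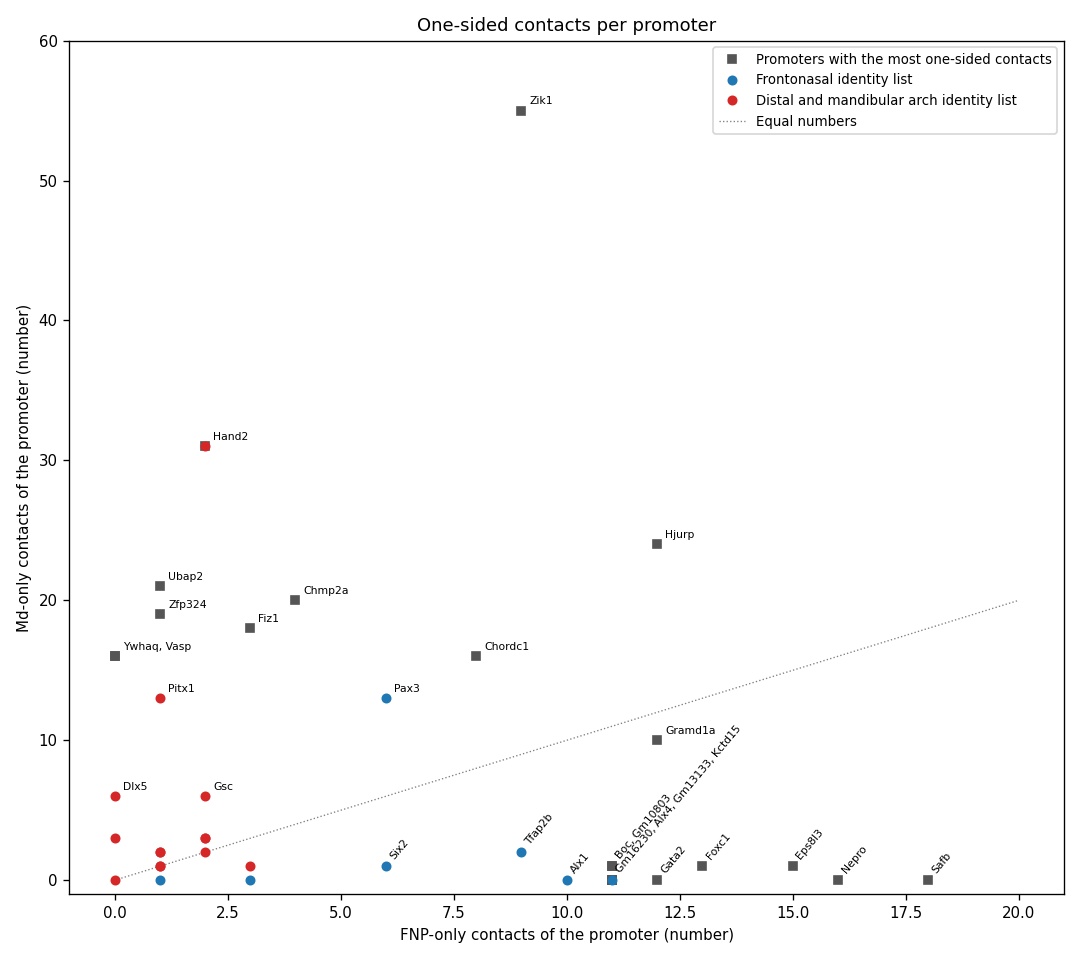
Md-only against FNP-only contacts per promoter (both axes, number of contacts) for the promoters with the most one-sided contacts (grey squares) and for the frontonasal (blue) and the distal and mandibular arch (red) lists; labels give the first gene of the bait, and the dotted line marks equal numbers. *Alx1* and *Alx4* lie on the FNP-only axis with 10 and 11 contacts, *Hand2* at 31 and *Pitx1* at 13 Md-only contacts, and *Pax3* has contacts of both kinds.

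The one-sided contacts with the highest scores were mostly very long or joined promoters. On the FNP side the first was *Fezf1*, a forebrain zinc-finger gene, with a fragment in *Dlx6os1*, 16.4 Mb away on chromosome 6 (6855788 to 6858378), which scored 26.8 and 23.2 in FNP, 9.91 and 0 in Mx, and 0 in Md and PA2. *Pax6os1*, antisense to *Pax6*, was listed with a fragment in *Tbr1*, 43.9 Mb away, at 13.8 and 20.0. Promoter pairs within 0.5 Mb were *Inpp1* with *Gm23460* (14.9 and 29.7), *Zfp493* with *Zfp595* (14.6 and 16.7), *Mief1* with *Rpl3* (16.9 and 14.6) and *Hsd17b6* with *Gm16230* (15.9 and 14.2). *Mief1* with *Rpl3* was also listed in PA2, at 15.29 and 8.51, and in Mx replicate 2, at 12.61. Of the others, *Fxyd3* with *Cnot3* and *Hjurp* with *Xkr4* were 27.4 and 84.9 Mb long.

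On the Md side the highest was *Cdkn2a*, a cell cycle inhibitor gene, with a fragment in its paralogue *Cdkn2c*, 20.4 Mb away on chromosome 4. It scored 27.05 and 25.66 in Md and 26.35 and 14.56 in PA2, and Mx had 0 and 8.58. Of the 10 highest, 3 joined *Hjurp* or the nearby *Mroh2a* to the start of chromosome 1 in and beside *Xkr4*, over 84.5 to 85.1 Mb. *Snrpa* and *Trim28*, 14.2 Mb apart on chromosome 7, scored 19.3 and 23.6. Both histone gene pairs joined the 2 parts of the *Hist1* cluster on chromosome 13, 1.83 and 1.85 Mb apart, with 17.6 and 17.0 for *Hist1h2ak* with *Hist1h2be* and 17.5 and 20.3 for the bait of *Hist1h3d*. The former was also listed in PA2, at 10.15 and 16.91, and the latter in Mx, at 10.08 and 6.69. *Gtf2a1* with *Galc*, *Bud31* with *Golga3* and *Cpsf3* with an intergenic fragment were 6.67, 34.9 and 3.75 Mb long. The *Cpsf3* contact was unlisted in FNP only, since it scored 16.11 and 24.19 in Md, 10.48 and 20.54 in Mx, and 15.11 and 22.22 in PA2.

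Md libraries listed longer contacts than FNP libraries, and also more of them. Contacts within a chromosome numbered 173477 and 176770 in Md, 139707 and 161941 in FNP, 151455 and 157277 in Mx, and 140559 and 145035 in PA2. The part of list length in the distances was not tested. The median distance between fragment midpoints was 348 and 407 kb in the FNP libraries and 538 and 457 kb in the Md libraries, without overlap. The mean was 378 ± 41.9 kb (SD, n = 2) in FNP and 498 ± 57.1 kb (SD, n = 2) in Md, a difference of -120 kb (exact permutation test of the medians, two-sided p = 0.333, and 2 against 2 libraries cannot give less). The Mx libraries had 369 and 387 kb and the PA2 libraries 341 and 358 kb, so both Md libraries were above the other 6. Beyond 10 Mb lay 4.64% and 8.14% of the contacts in FNP and 18.8% and 9.75% in Md, the higher value being that of Md replicate 1. Within 2 Mb only, the difference of the medians was -24.0 kb, and without Md replicate 1, at all distances, -79.6 kb (exact permutation test, p = 0.667). With every list cut to the same number of highest scores it was -124 kb.

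The median distance was 321 kb for FNP-only and 424 kb for Md-only contacts, 640 kb for contacts of any of the 4 libraries, and 238 kb for those in all 4. The order of FNP-only and Md-only turned when an FNP library was left out and did not turn when an Md library was. In these settings the side left with 1 library takes in all of its contacts unlisted on the other side. They therefore do not test the order under the rule of 2 libraries per side. The difference of -102 kb became 452 kb without FNP replicate 1 and 142 kb without FNP replicate 2. It was -825 kb when Md replicate 1 was left out and -1431 kb when Md replicate 2 was. Below 100 kb, 3.92% of the contacts were FNP-only (1179 of 30075) and 2.57% Md-only (774). From 100 to 500 kb these were 3.56% and 3.40%, and from 1 to 2 Mb 1.64% and 2.64%. Above 10 Mb, where the 4 libraries listed 67996 contacts, 0.156% were FNP-only and 0.282% Md-only. The FNP libraries listed 6476 and 13187 of these and the Md libraries 32671 and 17234, so that most very long contacts were listed by a single library. Other baits were the partner in 13.6% of the FNP-only and 14.01% of the Md-only contacts, in 13.2% of all contacts and in 20.4% of those in all 4 libraries.

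**Figure D5:**
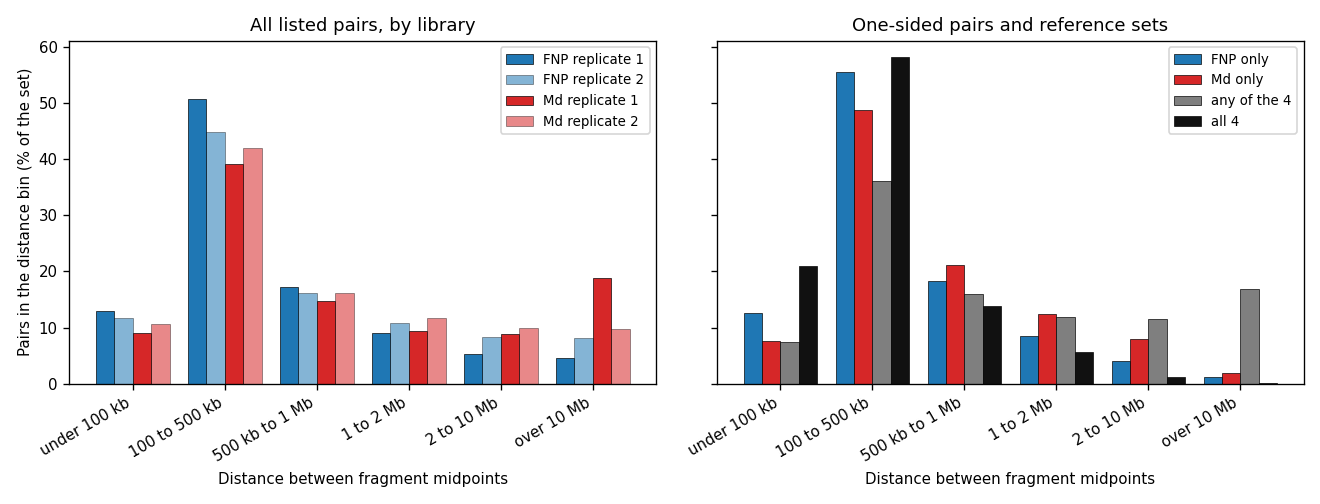
Share of contacts in each distance class (vertical axis, % of the set; horizontal axis, distance between fragment midpoints) for the 4 libraries (left) and for FNP-only, Md-only, all contacts and those listed in all 4 libraries (right). Md replicate 1 has 18.8% of its contacts beyond 10 Mb, and below 100 kb the FNP-only share (12.7%) exceeds the Md-only share (7.66%).

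Adjacent fragments were seldom one-sided together. Counted from the side of each bait, 5.70% of the FNP-only and 6.77% of the Md-only contacts had a neighbouring fragment that was one-sided in the same direction. Series of 3 or more fragments numbered 25 on the FNP side and 29 on the Md side. The longest on the FNP side had 4 fragments, at *Alx4*, *Pax3* and *Mark2*, and on the Md side 5 fragments, at *Pax3* and, in 2 places, at *Hand2*.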

How the data were processed

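PCHi-C of E10.5 FNP and Md CNCCs was analysed in 2 libraries each, independent biological replicates per the study's methods, with 2 Mx and 2 PA2 libraries as reference. Reads were aligned by the authors (HiCUP, GRCm38/mm10), who deposited, for each library, a list of HindIII fragment pairs with a CHiCAGO score. This score grows as the p-value of the read count falls, weighted for distance, under a background model that CHiCAGO estimates from the same library, and no deposited score is below 5. A library's background moves its scores, and a pair near 5 can be listed in 1 replicate and missed in the other.

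Pairs within a chromosome were kept and an unlisted pair was set to 0. Distances are between fragment midpoints. A pair of 2 baits was credited to both. Of 22171 baits, 21626 held a start site in GENCODE vM21. limma (lmFit, eBayes with trend, Benjamini-Hochberg) was fitted to 8 libraries with 4 population means, on asinh of the score and on log2 of contacts per bait plus 1, scaled to 100000 pairs of the library. P-values measure the spread between 2 libraries per population, which may be technical. The limma steps were tested on simulated data, in which the changed contacts were listed in all 8 libraries. This does not show how the test fares with one-sided contacts. The text names the 10 one-sided pairs with the highest lower score and the 10 promoters with the most one-sided pairs on each side (with ties), and genes of 8 lists; some of these genes and pairs are not reported here, though list counts include them. Members and lists were chosen with earlier results of these data known. The 9 stretches counted around promoters were chosen after their values were seen. Alternatives were other filters, scales, scores and distances, and leaving out each library. Python 3.11.15 (pandas 2.3.3, NumPy 2.4.6, matplotlib 3.10.9) and R 4.3.3 (limma 3.58.1) were used.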

Additional observations from a re-analysis of the deposited data

Results flagged for a closer look

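Pairs between chromosomes, which none of the comparisons used, made up 46.5% of the list of Md replicate 1. In the other 7 E10.5 libraries the percentage lay between 3.04 and 3.86. Its part in the longer distances of Md was not tested, and the median distances without this library are given beside those of all 4.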

How the results depend on the processing

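For single contacts, limma called 0 in the main setting and in each alternative but 2, which called 6743 (at least 2 of 8 libraries) and 15955 (the 4 FNP and Md libraries only). For promoters, leaving out 1 library called between 0 and 8, namely 1 without Md replicate 1 (*Oaz1*) and 8 without Md replicate 2, and all other alternatives called 0. Replicate numbers are shared between populations but correlated by only 0.012 to 0.069 in their deviations for contacts and 0.051 to 0.109 for promoters, and with the replicate block limma called 0 contacts and 0 promoters. A score of 10 or more left 65 FNP-only and 201 Md-only contacts, and 2663 and 2819 were unlisted in Mx and PA2 as well. With 1 library left out, contacts of the remaining libraries numbered 14643 to 71731 on the FNP side and 16789 to 95809 on the Md side. The difference in median distance of FNP-only and Md-only contacts was -102 kb, -164 kb with equal numbers of top-scoring pairs and -213 kb for contacts unlisted in Mx and PA2. Equal numbers of top-scoring pairs left 10562 FNP-only and 6832 Md-only contacts. With 1 library left out the difference in median distance ranged from -1431 to 452 kb. It was 452 kb without FNP replicate 1 and 142 kb without FNP replicate 2. In these settings the side left with 1 library takes in contacts that 1 library lists, and the part of this in the change was not tested. The difference in library medians kept its sign in each of the 7 alternatives, from -160 to -24.0 kb. For those that left out 1 library this was fixed in advance, since the medians of FNP and Md do not overlap. Of 14 promoters recomputed, *Tfap2b* changed sign with the sum of scores (-0.047) and *Dlx5* without FNP replicate 2 (0.024, within -0.289 to 0.024 with 1 library left out). Contacts with a score below 5 were not detectable, and read depth is unknown.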
